A study of Mus musculus with 9 samples.

Results

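Integrins are the cell surface receptors that tie a cell to the extracellular matrix, and laminins and collagens are the main proteins they bind. The 41 genes described here encode 15 integrin subunits, 7 laminin chains, 11 collagen chains, the laminin linkers Nid1 and Nid2, fibronectin (Fn1), the proteoglycans Hspg2 and Agrn, the laminin receptor Dag1, and the matrix-associated proteins Sparc and Sparcl1. They were chosen by name, with earlier results of these data known. All 41 were among the 48526 genes of the count table, and 40 were among the 18858 genes with enough counts to be tested, Col1a2 being the exception. The cells were neural stem cells (NSCs) from the subependymal zone (SEZ), the neurogenic niche beside the lateral ventricles, of adult C57BL/6 mice. The methods give them as C57BL/6J, wild type and 2 to 4 months old. NSCs were grown as neurospheres with EGF and FGF, and differentiation was induced by plating them on an adhesive substrate without EGF. The methods name the substrate as Matrigel and keep FGF in the medium. RNA was sequenced at the start (0 h) and 1 h and 6 h later, with 3 replicates per time point. For cells fixed early after induction the methods add a day in growth medium after seeding, and whether the RNA samples had it is not given in the sources used here. The substrate, the loss of EGF and the time in culture cannot be told apart in these samples.

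An integrin is a pair of an alpha and a beta chain, and the pair sets which matrix protein is bound. Laminins are trimers of an alpha, a beta and a gamma chain, and basement membranes are sheets of laminin and collagen IV joined by nidogens and by the proteoglycans perlecan (Hspg2) and agrin (Agrn). In the adult SEZ, laminin-rich basement membranes reach from blood vessels to the stem cells, and integrin alpha 6, a laminin receptor, is a known surface protein of NSCs. Matrigel is itself an extract of basement membrane, rich in laminin and collagen IV.

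The promoters below belong to the 3 genes that rose and the 2 genes that fell with the smallest adjusted p at 6 h among those with an entry in the RefSeq promoter table (GRCm38.p6). Each window holds 250 bases before and 50 bases after the transcription start, written 5′ to 3′ on the strand of the gene. Capitals mark matches to any of 7 motifs, searched on both strands: GGGCGG (an Sp1 site), CCAAT (the CCAAT box), TATAAA (the TATA box), TGANTCA (an AP-1 site), GGAATG (a TEAD site), CACGTG (an E-box) and the SRF CArG box. Matches that overlap are each counted.
Lama5 (chr2:180225810-180226109, minus strand): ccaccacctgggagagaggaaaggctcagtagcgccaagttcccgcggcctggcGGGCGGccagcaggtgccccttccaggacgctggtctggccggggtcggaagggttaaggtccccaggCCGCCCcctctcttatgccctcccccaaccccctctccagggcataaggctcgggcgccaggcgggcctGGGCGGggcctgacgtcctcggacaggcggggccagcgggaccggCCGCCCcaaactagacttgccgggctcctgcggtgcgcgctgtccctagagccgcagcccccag
Itga5 (chr15:103366742-103367041, minus strand): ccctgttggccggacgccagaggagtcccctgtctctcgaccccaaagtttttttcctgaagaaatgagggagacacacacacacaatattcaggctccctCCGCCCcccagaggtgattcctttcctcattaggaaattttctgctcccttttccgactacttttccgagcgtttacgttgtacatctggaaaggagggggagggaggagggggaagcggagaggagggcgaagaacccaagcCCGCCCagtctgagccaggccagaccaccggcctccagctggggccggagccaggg
Agrn (chr4:156197439-156197738, minus strand): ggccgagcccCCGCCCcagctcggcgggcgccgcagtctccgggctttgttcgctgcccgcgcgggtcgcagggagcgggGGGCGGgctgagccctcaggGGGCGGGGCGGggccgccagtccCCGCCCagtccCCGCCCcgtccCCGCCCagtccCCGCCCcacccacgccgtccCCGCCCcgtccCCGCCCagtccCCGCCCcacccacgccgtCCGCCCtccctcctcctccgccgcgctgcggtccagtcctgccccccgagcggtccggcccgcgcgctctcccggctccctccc
Itga8 (chr2:12301895-12302194, minus strand): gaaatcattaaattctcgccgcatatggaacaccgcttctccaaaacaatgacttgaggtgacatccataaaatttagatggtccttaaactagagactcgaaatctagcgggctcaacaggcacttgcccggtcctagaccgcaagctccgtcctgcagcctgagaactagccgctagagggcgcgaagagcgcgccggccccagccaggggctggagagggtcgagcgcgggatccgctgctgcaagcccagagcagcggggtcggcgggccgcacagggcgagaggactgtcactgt
Col18a1 (chr10:77166481-77166780, minus strand): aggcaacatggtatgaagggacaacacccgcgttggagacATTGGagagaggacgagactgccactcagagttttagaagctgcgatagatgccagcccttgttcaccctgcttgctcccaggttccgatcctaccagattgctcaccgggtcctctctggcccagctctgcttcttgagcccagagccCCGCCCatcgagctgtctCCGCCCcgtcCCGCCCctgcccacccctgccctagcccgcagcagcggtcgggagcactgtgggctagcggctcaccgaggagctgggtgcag

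The windows of Lama5, Itga5 and Agrn held 4, 2 and 12 Sp1 matches and no match to the other 6 motifs, that of Col18a1 held 3 Sp1 matches and a CCAAT box, and that of Itga8 held none of the 7. For Agrn and Col18a1 the more upstream of 2 windows is shown. Of the 41 genes, 30 had an entry, with 35 windows in all. Sp1 matches were in 68.6% of these windows and in 35.7% of all 32851 windows of the table, CCAAT in 37.1% and 37.4%, and TATAAA in 2.86% and 13.6%. AP-1 matches were in 8.57% of the windows and 7.81% of all, TEAD matches in 11.4% and 14.7%, CArG boxes in 2.86% and 1.63%, and E-boxes in none of the 35 windows and 7.15% of all. The windows of these genes were also richer in G and C, with a median of 61.3% against 52.7%, and the comparison of motif shares was not matched for composition. Col4a1 and Col4a2, which encode the chains of the common collagen IV trimer, lie head to head on opposite strands of chromosome 8 and overlap by 22 exon bases, so their windows share sequence.

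The deposited values were raw read counts per gene, with 65871454 to 105592597 counts per library. They are given here as CPM, counts divided by the library size after TMM scaling, and time points were compared with edgeR's quasi-likelihood test, blocked by replicate number, at a Benjamini-Hochberg adjusted p under 0.05 over all 18858 genes. Libraries with the same replicate number deviated together, and the biological coefficient of variation was 0.0627 with the block and 0.277 without it. The labels do not say what such libraries share, and nothing says that the replicates came from separate animals. The p-values of the blocked fit therefore measure only the spread left in these samples once differences between replicate numbers are removed. That spread may be technical. Of 7 NSC markers (among them Nes, Sox2 and Fabp7), none was at 0, and their summed level was between 5939 and 9027 CPM in every library. The 6 fibroblast markers summed to 8.71 to 17.5 CPM at 0 h and 10.6 to 21.3 CPM at 6 h, mostly Pdgfra, which is also an oligodendrocyte lineage marker, while Dcn and Lum reached at most 0.0440 CPM. The 6 endothelial markers summed to 4.97 to 19.99 CPM at 0 h and 3.23 to 10.8 CPM at 6 h, mostly Flt1, which averaged 5.51, 11.92 and 1.61 CPM in replicates 1, 2 and 3, while Cldn5 and Cdh5 reached at most 0.0330 CPM. The 7 microglial markers summed to at most 0.570 CPM, with Itgam at 0 in 9 of 9 libraries. The 4 ependymal markers, mostly Foxj1, summed to 46.3 to 87.2 CPM at 0 h and 37.8 to 59.8 CPM at 6 h, and the 5 oligodendrocyte lineage markers to 13.7 to 22.5 CPM and 17.4 to 27.8 CPM. The 8 pericyte and smooth muscle markers summed to 131 to 166 CPM at 0 h and 202 to 229 CPM at 6 h. Within them Cspg4, which NSC-derived progenitors also express, averaged 65.9 CPM at 0 h and 174 CPM at 6 h, and Acta2 77.2 and 36.6 CPM. The 5 neuronal markers summed to 19.5 to 38.6 CPM at 0 h and 58.4 to 121 CPM at 6 h, mostly Syt1. Syt1 averaged 22.8 CPM at 0 h and 70.3 CPM at 6 h. The means of Rbfox3 (2.37 to 5.48 CPM), Tubb3 (3.76 to 7.83 CPM) and Snap25 (1.81 to 2.55 CPM) also rose. Dcx went the other way, from 1.08 to 0.811 CPM. The part of these cell types in the results below was not tested. In bulk RNA, fewer cells of a type and less RNA per cell cannot be told apart.

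Levels were compared between genes as CPM per kb of exon, averaged over the 9 libraries. Sparc, a collagen-binding secreted protein, stood highest at 246 CPM per kb, followed by Itgb1, the beta chain shared by most integrins, at 241, Lamc1, the gamma chain of most laminins, at 119, and Dag1, which encodes the laminin receptor dystroglycan, at 69.3. Sparc and Itgb1 overlapped across libraries (195 to 276 and 208 to 264 CPM per kb). Lamc1 (86.5 to 185) and Dag1 (55.9 to 86.9) overlapped only at their ends. Next came Itgb5 (46.5), Agrn (42.3), Itgav (37.7), Itga6 (32.7), Itgb8 (24.8) and Col4a5 (23.8 CPM per kb). The interstitial collagens of connective tissue were at the low end, with Col1a1 at 0.132, Col3a1 at 0.0347 and Col1a2 at 0.00747 CPM per kb. Itgb4, the beta chain of hemidesmosomes, was at 0.0312 CPM per kb. With the length of the longest transcript in place of the union of exons, 24 genes moved in this order by up to 6 places, and Sparc, Itgb1, Lamc1 and Dag1 kept the first 4.

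**Figure D1:**
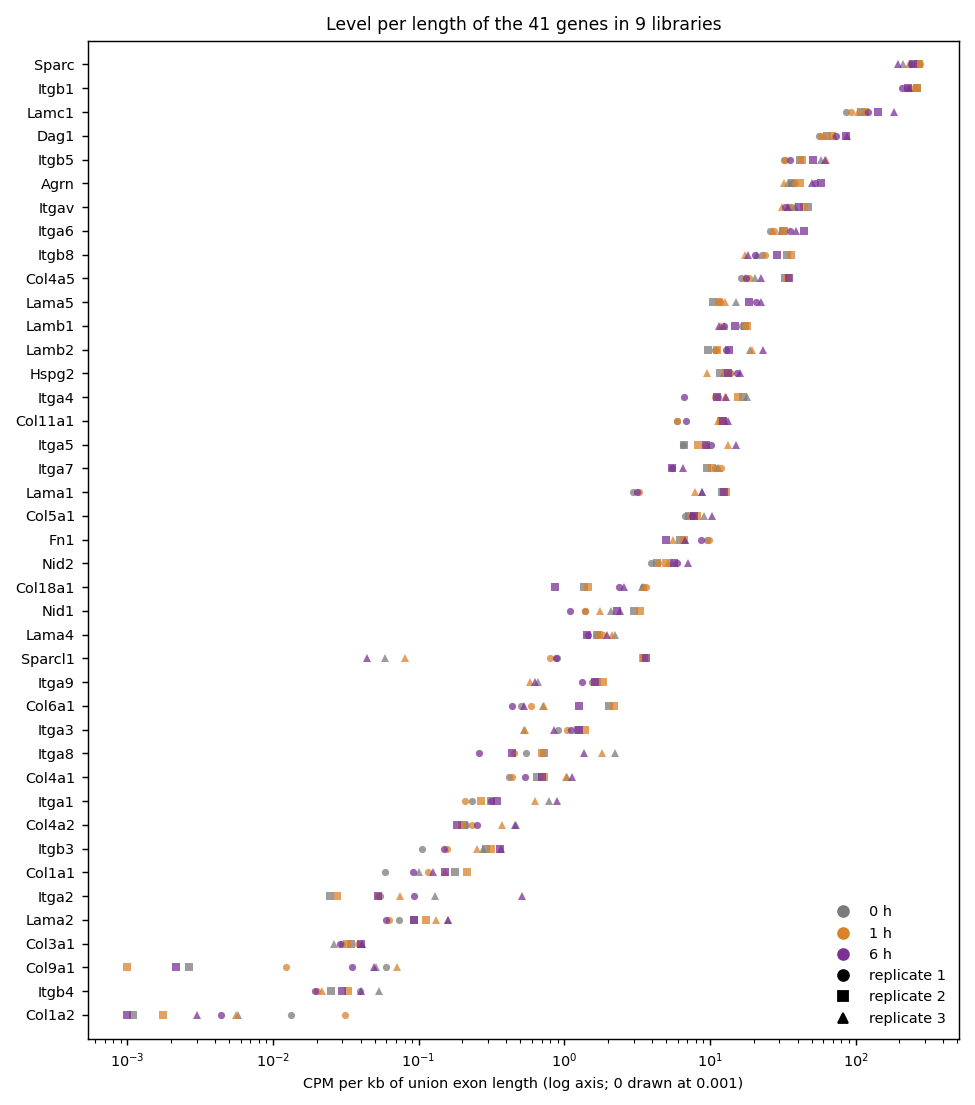
CPM per kb of exon (x axis, log scale) of the 41 genes (rows, ordered by their mean) in the 9 libraries, with colour for the time point and shape for the replicate. The points of a gene mostly lie close together compared with the range between genes, from 0.00747 CPM per kb for Col1a2 to 246 for Sparc, while Sparcl1 and Col9a1 spread widely by replicate.

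At 6 h against 0 h, 11 of the 40 genes were higher and 11 lower, which is 55.0% of them, and 34.9% of all genes tested passed the same test (17.4% higher, 17.5% lower). Leaving out each library in turn gave 8 to 16 higher and 4 to 12 lower, with 4 lower without replicate 2 of 0 h or of 6 h, 5 without 6 h replicate 1 and 6 without 0 h replicate 1 or 3. The median log2 fold change was 0.07, against -7.8e-05 over all genes. The integrins split 5 higher to 6 lower of 15, the laminin chains 3 to 2 of 7, and the collagen chains 0 to 2 of the 10 tested. Agrn, Dag1 and Nid2 rose and Sparc fell. In 7 of the 22 the 3 libraries of 6 h did not overlap those of 0 h, out of 40 genes and against 25.0% of all genes tested. The genes that passed had more reads, with a median of 156 CPM against 5.58 CPM for the 18 that did not pass and 11.2 CPM over all genes tested. Without the block 3 of the 22 passed (Lama5, Agrn and Itga7) and 2.42% of all genes did (1.46% higher, 0.955% lower). Of the 40 genes 18 were higher and 13 lower in 3 of 3 replicates, and 63.2% of all genes had the same direction in 3 of 3. With trends in GC content and length removed the median log2 fold change was 0.03.

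**Figure D2:**
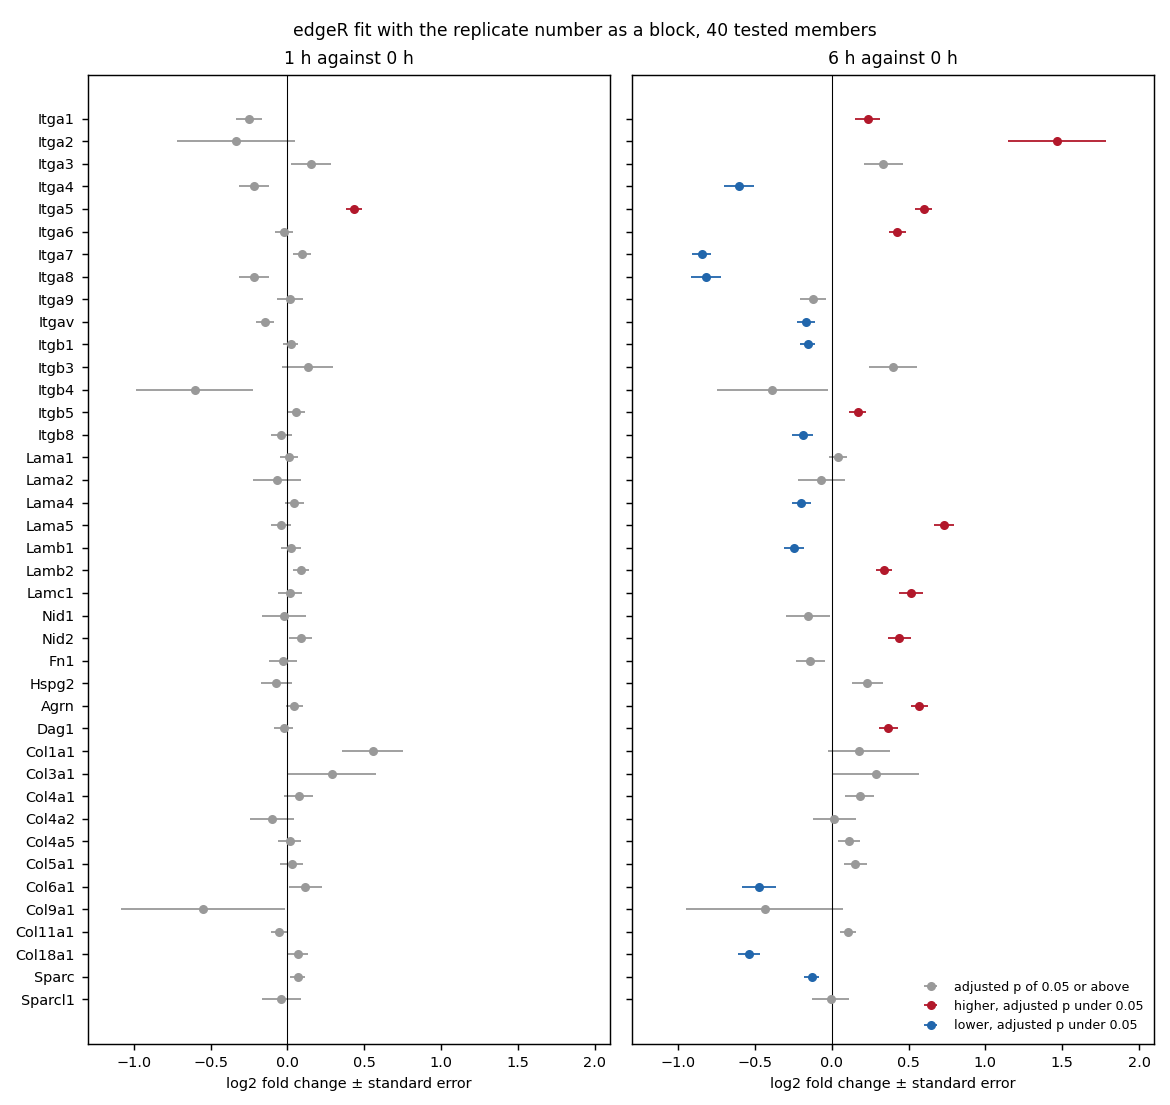
Log2 fold change (x axis) with its standard error (bars) of the 40 tested genes (rows) at 1 h and at 6 h against 0 h, from the blocked edgeR fit. At 1 h 1 gene, Itga5, is coloured as past the threshold, and at 6 h 11 are higher and 11 lower, from -0.85 for Itga7 to 1.47 for Itga2.

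Among the integrin chains that bind laminin, Itga7 fell and Itga6 rose. Itga7 (ENSMUSG00000025348, chromosome 10, 128933818 to 128958282), the laminin receptor chain best known from muscle, was at 87.5, 77.1 and 91.4 CPM at 0 h, 96.3, 83.1 and 94.1 CPM at 1 h, and 44.2, 44.8 and 53.2 CPM at 6 h in replicates 1, 2 and 3, the order kept for all values below. Every 6 h library lay below every 0 h and 1 h library, while 0 h and 1 h overlapped. The fall at 6 h was the largest of the 11 (log2 fold change -0.85, standard error 0.06, edgeR adjusted p = 4.6e-07, and 0.0108 without the block). Itga6, the NSC surface protein named above, was at 233, 287 and 277 CPM at 0 h, 249, 293 and 243 CPM at 1 h, and 318, 402 and 353 CPM at 6 h. All 6 h libraries were above all others (log2 fold change 0.43, standard error 0.06, edgeR adjusted p = 7.9e-05, and 0.113 without the block). Itga3, the laminin receptor chain of epithelia, averaged 5.06 ± 2.02 CPM (SD, n = 3) before induction and 6.14 ± 1.21 CPM (SD, n = 3) after 6 h and did not pass (log2 fold change 0.34, edgeR adjusted p = 0.0589), although 3 of 3 replicates were higher. Itga6 and Itga7 moved in opposite directions in 3 of 3 replicates each.

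Both collagen receptor chains of the list, Itga1 and Itga2, rose at 6 h from low levels. Itga1 (ENSMUSG00000042284, chromosome 13, 114953096 to 115101964) was at 4.35, 5.81 and 14.7 CPM at 0 h, 3.84, 5.02 and 11.7 CPM at 1 h, and 5.82, 6.42 and 16.5 CPM at 6 h. Replicate 3 was the highest at each time point and the time points overlapped, but within each replicate 6 h was above 0 h (log2 fold change 0.23, standard error 0.08, edgeR adjusted p = 0.0402, and 0.920 without the block). Leaving out each library in turn gave 9 leave-one-out fits, of which 4 kept the call, and it was lost without 0 h replicate 1, 2 or 3 or 6 h replicate 1 or 3. DESeq2 with the block also lost the call of Itga1 (adjusted p = 0.0582). Itga2 (ENSMUSG00000015533, chromosome 13, 114833081 to 114932100) was at 0.387, 0.176 and 0.931 CPM at 0 h, 0.375, 0.197 and 0.528 CPM at 1 h, and 0.665, 0.374 and 3.66 CPM at 6 h. Its counts were 28, 13 and 65 at 0 h and 49, 34 and 392 at 6 h, so the rise was steepest in replicate 3 (log2 fold change 1.47, standard error 0.32, edgeR adjusted p = 0.00316, and 0.396 without the block). The call was lost when replicate 3 was left out at 0 h or 6 h, where the adjusted p rose to 0.115 by edgeR, and without 6 h replicate 3 the log2 fold change was 0.71. Itga2 and Itga1 are neighbours on the minus strand of chromosome 13, 21.0 kb apart. Itga1 shares 3.68% of its exon bases with Gm49395 on the same strand, and how reads there were assigned was not tested.

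The chains that recognise the RGD sequence of fibronectin and vitronectin did not move together. Itga5 (ENSMUSG00000000555, chromosome 15, 103344286 to 103366763), which pairs with Itgb1 as the classical fibronectin receptor, was at 32.4, 32.8 and 46.9 CPM at 0 h, 45.3, 40.8 and 66.03 CPM at 1 h, and 49.8, 46.6 and 74.3 CPM at 6 h. It was the only gene of the 40 past the threshold at 1 h, and it was higher than 0 h in 3 of 3 replicates at 1 h and at 6 h, with replicate 3 above the others throughout (log2 fold change 0.60, standard error 0.05, edgeR adjusted p = 3.7e-06, and 0.246 without the block). Itga8 (ENSMUSG00000026768, chromosome 2, 12106632 to 12301922), a receptor chain for nephronectin and fibronectin, was at 4.05, 5.35 and 16.5 CPM at 0 h, 3.34, 5.16 and 13.4 CPM at 1 h, and 1.90, 3.22 and 10.03 CPM at 6 h. It was lower at 6 h than at 1 h and 0 h in each replicate, and replicate 3 at 6 h was still above replicates 1 and 2 at 0 h (log2 fold change -0.82, standard error 0.10, edgeR adjusted p = 4.2e-05, and 0.700 without the block). Itgav, the chain that pairs with Itgb3, Itgb5 and Itgb8, was at 385, 505 and 415 CPM at 0 h, 374, 478 and 333 CPM at 1 h, and 354, 439 and 367 CPM at 6 h. Its fall was small and the time points overlapped (log2 fold change -0.17, standard error 0.06, edgeR adjusted p = 0.0413, and 0.667 without the block), and the call was kept in 3 of the 9 leave-one-out fits, those without 1 h replicate 1 or 3 or 6 h replicate 3. Itga8 shares 5.05% and Itgav 5.90% of their exon bases with a gene on the opposite strand, and the strand setting of the counting is not given in the sources used here.

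Itga4 (ENSMUSG00000027009, chromosome 2, 79255426 to 79333123), which binds fibronectin and the vascular adhesion molecule VCAM1, was at 158, 237 and 251 CPM at 0 h, 151, 217 and 179 CPM at 1 h, and 92.7, 157 and 181 CPM at 6 h. It fell in each replicate at 6 h (log2 fold change -0.60, standard error 0.10, edgeR adjusted p = 0.000361, and 0.303 without the block), though the range at 6 h overlapped that at 0 h. Cerkl, on the opposite strand, shares 8.04% of its exon bases. Itga9, the relative of Itga4 that binds tenascin and other ligands, averaged 9.99 ± 4.28 CPM (SD, n = 3) at 0 h against 9.15 ± 3.94 CPM later (SD, n = 3 at 6 h) and did not pass (log2 fold change -0.12, edgeR adjusted p = 0.305).

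Of the beta chains Itgb5 rose and Itgb1 and Itgb8 fell, each by a small step. Itgb1 (ENSMUSG00000025809, chromosome 8, 128685654 to 128733200), the partner of most of the alpha chains above, was at 921, 1071 and 1054 CPM at 0 h, 967, 1075 and 1043 CPM at 1 h, and 850.3, 931 and 946 CPM at 6 h. The 6 h value was the lowest of its replicate in 3 of 3 replicates (log2 fold change -0.16, standard error 0.05, edgeR adjusted p = 0.0197, and 0.403 without the block), and the call was kept in 5 of 9 leave-one-out fits, being lost without 0 h replicate 2 or 3 or 6 h replicate 1 or 2. Itgb5, the vitronectin receptor chain, was at 115, 148 and 207 CPM at 0 h, 116, 152 and 224 CPM at 1 h, and 125, 181 and 219 CPM at 6 h. Its rise (log2 fold change 0.17, standard error 0.06, edgeR adjusted p = 0.0323, and 0.868 without the block) was kept in 4 of 9 leave-one-out fits, was lost without any 0 h library or 6 h replicate 1 or 2 (0.11 on the log2 scale without 6 h replicate 2), and with GC and length trends removed the adjusted p was 0.365 by edgeR. Itgb8, whose pair with Itgav releases active TGF-beta, was at 251, 376 and 233 CPM at 0 h, 264, 396 and 192 CPM at 1 h, and 227, 322 and 203 CPM at 6 h. It was lower at 6 h than at 0 h in each replicate (log2 fold change -0.19, standard error 0.07, edgeR adjusted p = 0.0454, and 0.824 without the block), with the call lost without any 0 h library or 6 h replicate 1 or 2. Itgb3, the chain of the platelet fibrinogen receptor, and Itgb4 were low, at 1.73 ± 0.735 CPM and 0.208 ± 0.0722 CPM (SD, n = 3 each) at 6 h, and neither passed in any of the 3 comparisons. At 6 h against 0 h their log2 fold changes were 0.40 (edgeR adjusted p = 0.0689, higher in 3 of 3 replicates) and -0.39 (edgeR adjusted p = 0.446).

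Of the laminin alpha chains, Lama5 rose and Lama4 fell. Lama5 (ENSMUSG00000015647, chromosome 2, 180176373 to 180225859), the broadly expressed alpha chain of adult basement membranes, was at 132, 120.2 and 173 CPM at 0 h, 135, 130.5 and 144 CPM at 1 h, and 234, 211 and 257 CPM at 6 h. The 6 h libraries were all above the 0 h and 1 h libraries (log2 fold change 0.73, standard error 0.06, edgeR adjusted p = 3.6e-06, and 0.0405 without the block). Lama4, the alpha chain of vessel and nerve laminins, was at 20.1, 20.1 and 26.8 CPM at 0 h, 22.1, 20.8 and 25.7 CPM at 1 h, and 17.6, 17.2 and 23.6 CPM at 6 h. The fall was small beside the difference between replicate 3 and the other two (log2 fold change -0.20, standard error 0.06, edgeR adjusted p = 0.0240, and 0.629 without the block), and the call was lost without any 0 h library or 6 h replicate 1 or 2. Lama1, the alpha chain of the early embryo and of the laminin in Matrigel, averaged 77.3 ± 45.1 CPM (SD, n = 3) at 0 h against 78.8 ± 45.3 CPM later (SD, n = 3 at 6 h), with a log2 fold change of 0.04 (edgeR adjusted p = 0.633). The replicates of Lama1 lay far apart, at 28.5, 117 and 85.9 CPM at 0 h, with replicate 1 the lowest. Lama2, the alpha chain of muscle, was at 1.76 ± 0.735 CPM and 1.70 ± 0.834 CPM (SD, n = 3 each) and did not pass.

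The laminin beta chains moved in opposite directions and the gamma chain rose. Lamb1, the common beta chain, was at 163, 174 and 123 CPM at 0 h, 172, 179 and 118 CPM at 1 h, and 123, 147 and 115 CPM at 6 h. It was lowest at 6 h within each replicate (log2 fold change -0.25, standard error 0.07, edgeR adjusted p = 0.0120, and 0.555 without the block), with the call lost without 0 h replicate 1 or 2 or 6 h replicate 1 or 2, and a log2 fold change of -0.16 without 6 h replicate 1. Lamb2, the beta chain of synaptic and kidney laminins, was at 65.9, 59.1 and 114 CPM at 0 h, 67.3, 67.6 and 118 CPM at 1 h, and 77.9, 81.7 and 141 CPM at 6 h. It was higher at 6 h within each replicate, and replicate 3 at 0 h was above replicates 1 and 2 at 6 h (log2 fold change 0.34, standard error 0.05, edgeR adjusted p = 0.000295, and 0.706 without the block). Lamc1 (ENSMUSG00000026478, chromosome 1, 153218922 to 153332786) was at 716, 901 and 963 CPM at 0 h, 766, 963 and 862 CPM at 1 h, and 1003, 1169.8 and 1528 CPM at 6 h. Its 6 h libraries were above all 0 h and 1 h libraries, with replicate 3 the highest (log2 fold change 0.51, standard error 0.08, edgeR adjusted p = 0.000315, and 0.164 without the block). The calls of Lama5, Lamb2 and Lamc1 were kept in 9 of 9 leave-one-out fits.

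Among the proteins that join laminin to other parts of the matrix or to the cell, Nid2, Agrn and Dag1 rose. Nid2, a nidogen that links laminin to collagen IV, was at 20.3, 22.5 and 28.5 CPM at 0 h, 22.8, 25.7 and 26.6 CPM at 1 h, and 30.8, 29.1 and 36.4 CPM at 6 h. All 6 h values were above all 0 h values (log2 fold change 0.44, standard error 0.07, edgeR adjusted p = 0.000440, and 0.161 without the block), and Rtraf on the opposite strand shares 8.45% of its exon bases. Agrn (ENSMUSG00000041936, chromosome 4, 156165290 to 156197488), which binds laminin and dystroglycan, was at 341, 342 and 319.6 CPM at 0 h, 356, 386 and 298 CPM at 1 h, and 488, 534 and 468 CPM at 6 h. The 6 h libraries stood above the rest in each replicate and across replicates (log2 fold change 0.57, standard error 0.06, edgeR adjusted p = 9.0e-06, and 0.0358 without the block). Dag1 was at 355, 406 and 451 CPM at 0 h, 365, 438 and 385 CPM at 1 h, and 464, 548 and 552 CPM at 6 h, and again 6 h did not overlap 0 h or 1 h (log2 fold change 0.37, standard error 0.06, edgeR adjusted p = 0.000431, and 0.146 without the block). Dag1 lies 216 kb from Lamb2 on chromosome 9, on the other strand. The related genes Nid1, Fn1 and Hspg2 did not pass at 6 h against 0 h. Nid1 was at 15.1 ± 5.75 CPM and 13.5 ± 5.11 CPM (log2 fold change -0.15, edgeR adjusted p = 0.432), and Fn1, the ligand of the Itga5 pair, at 87.4 ± 20.8 CPM and 79.6 ± 21.6 CPM (-0.14, edgeR adjusted p = 0.276), SD and n = 3 each. Hspg2, the basement membrane proteoglycan perlecan, was at 198, 167 and 179 CPM at 0 h, 197, 185 and 137 CPM at 1 h, and 219, 189 and 229.6 CPM at 6 h. The 6 h value exceeded the 0 h value of the same replicate in 3 of 3 pairs (log2 fold change 0.23, edgeR adjusted p = 0.0919).

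**Figure D3:**
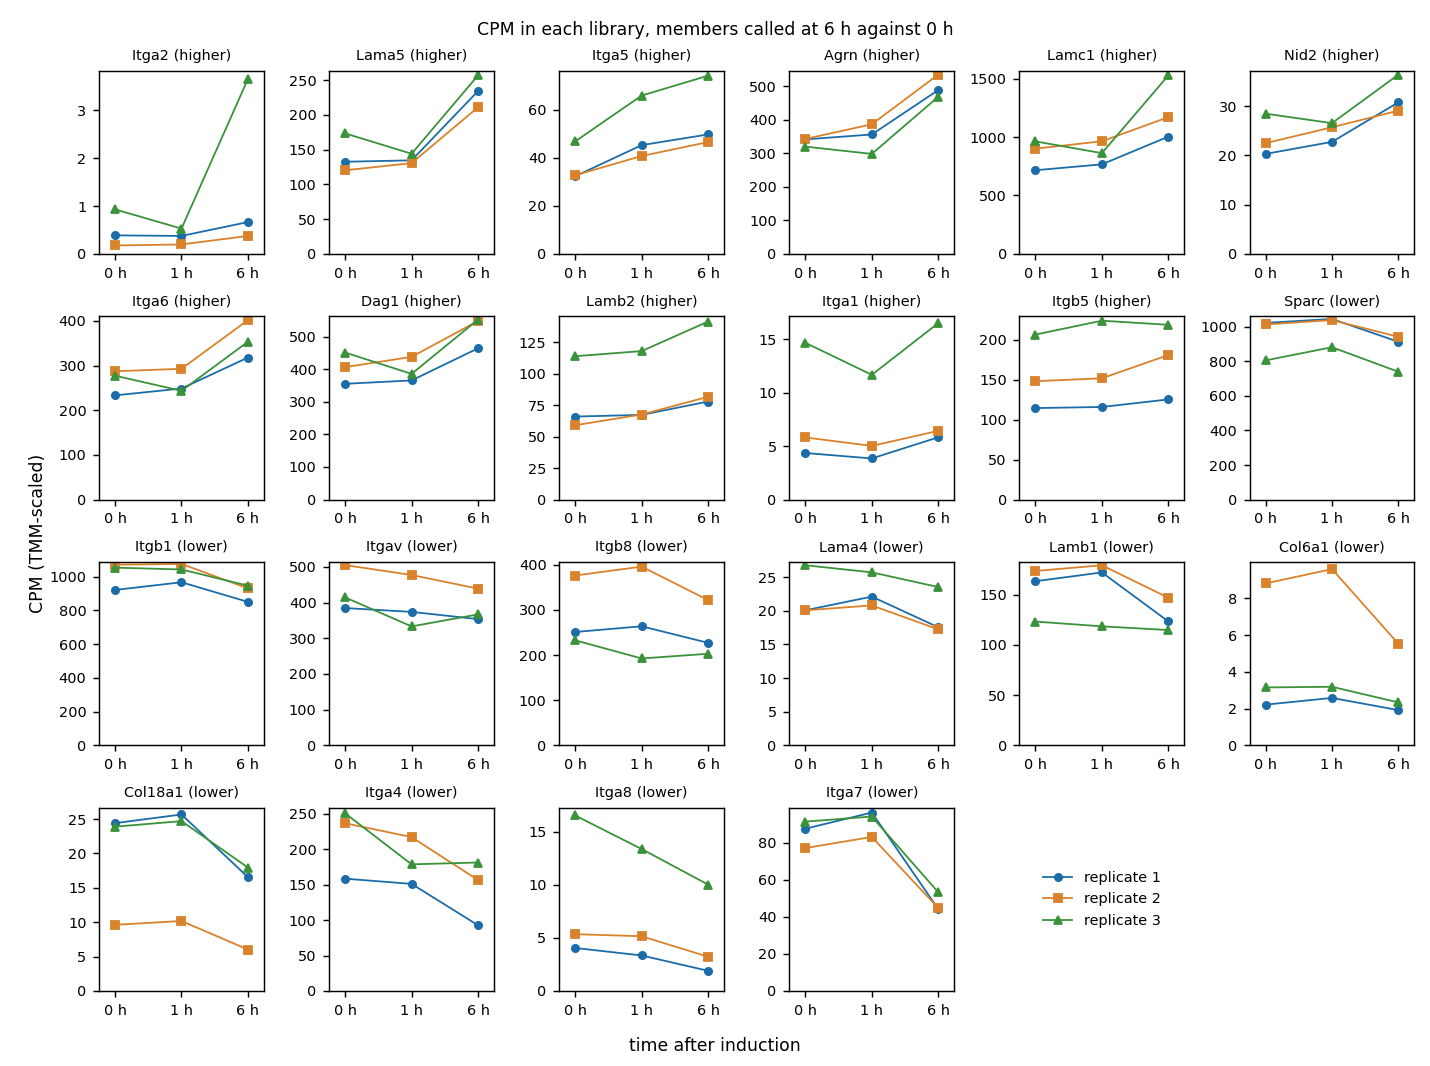
CPM (y axis, TMM-scaled, from 0) against time after induction (x axis) of the 22 genes past the threshold at 6 h against 0 h, a line for each of the 3 replicates. Within each replicate the 6 h point lies on the same side of the 0 h point in all 22 panels, while in genes such as Itga8, Lamb2, Itgb8 and Col6a1 the lines of the replicates are farther apart than the time points.

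In the blocked edgeR fit no collagen chain of the list passed as higher at 6 h against 0 h, and Col18a1 and Col6a1 fell. Among the alternative fits, the one with GC and length trends removed called Col11a1 higher. Col18a1 (ENSMUSG00000001435, chromosome 10, 77052178 to 77166548), the basement membrane collagen whose end fragment is endostatin, was at 24.4, 9.62 and 23.9 CPM at 0 h, 25.7, 10.2 and 24.7 CPM at 1 h, and 16.5, 6.03 and 17.96 CPM at 6 h. It was lower at 6 h in each replicate, and replicate 2 was far below the others at each time point (log2 fold change -0.54, standard error 0.07, edgeR adjusted p = 7.5e-05, and 0.698 without the block). Col6a1, a chain of the microfibrillar collagen VI, was at 2.21, 8.81 and 3.15 CPM at 0 h, 2.58, 9.60 and 3.18 CPM at 1 h, and 1.91, 5.52 and 2.33 CPM at 6 h. Here replicate 2 was the highest, and the fall was steepest in it (log2 fold change -0.47, standard error 0.11, edgeR adjusted p = 0.00520, and 0.779 without the block). The call of Col6a1 was lost when replicate 2 was left out at 0 h or 6 h (edgeR adjusted p up to 0.0731), while 9 of 9 leave-one-out fits kept that of Col18a1. Col6a1 and Col18a1 lie 326 kb apart on the minus strand of chromosome 10.

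The collagen IV chains had small changes that did not pass. Col4a5, the most abundant of them per kb and an X-linked chain, was at 109, 220.3 and 137 CPM at 0 h, 124, 232 and 117 CPM at 1 h, and 119, 233 and 149.6 CPM at 6 h. Replicate 2 was the highest at each time point and the time points overlapped (log2 fold change 0.11, standard error 0.07, edgeR adjusted p = 0.265). Col4a1 had a log2 fold change of 0.18 (edgeR adjusted p = 0.149) at 5.25 ± 2.35 CPM, and Col4a2 one of 0.02 (edgeR adjusted p = 0.939) at 1.95 ± 0.969 CPM at 0 h (SD, n = 3 each). Among the fibril-forming chains, Col11a1 was at 75.98, 154 and 161 CPM at 0 h, 76.02, 152 and 146 CPM at 1 h, and 87.6, 156 and 170.4 CPM at 6 h. Replicate 1 was below the others at each time point (log2 fold change 0.10, edgeR adjusted p = 0.149 at 6 h against 0 h), and with GC and length trends removed Col11a1 passed as higher (0.12, edgeR adjusted p = 0.0445). Col5a1, the regulator of fibril width, averaged 64.98 ± 10.5 CPM (SD, n = 3) at 0 h against 72.3 ± 12.8 CPM later (SD, n = 3 at 6 h, log2 fold change 0.15, edgeR adjusted p = 0.127), higher in 3 of 3 replicates. Col1a1, Col3a1 and Col9a1 were at most 1.40 CPM in any library and did not pass. Col1a2, the gene that was not tested, was between 0.0110 and 0.391 CPM, with the highest value in 1 h replicate 1. Col1a1, Col1a2 and Col3a1 are also markers of fibroblasts.

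Sparc (ENSMUSG00000018593, chromosome 11, 55394500 to 55423183), which binds collagen and loosens cell adhesion, was at 1022, 1013 and 805 CPM at 0 h, 1045, 1039 and 882 CPM at 1 h, and 913, 942 and 739 CPM at 6 h. It was lowest at 6 h within each replicate, with replicate 3 below the others at each time point (log2 fold change -0.13, standard error 0.05, edgeR adjusted p = 0.0492, and 0.699 without the block). Only the leave-one-out fit without 1 h replicate 3, 1 of 9, kept this call. Sparcl1, its relative in astrocytes, was at 2.52 CPM in replicate 1, 10.4 CPM in replicate 2 and 0.180 CPM in replicate 3 on average, and its log2 fold change at 6 h was -0.01 (edgeR adjusted p = 0.970).

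At 1 h against 0 h, Itga5 alone of the 40 passed, against 3.51% of all genes tested (1.36% higher, 2.14% lower). Its log2 fold change was 0.43 (standard error 0.05, edgeR adjusted p = 0.000654), and 9 of 9 leave-one-out fits kept the call, the adjusted p reaching at most 0.0121 by edgeR. From 0 h to 1 h it went from 32.4 to 45.3 CPM, from 32.8 to 40.8 CPM and from 46.9 to 66.03 CPM in replicates 1, 2 and 3, and the groups overlapped only through 0 h replicate 3. Without the block its adjusted p was 1.00 by edgeR, no gene of the 40 passed there (0 at an unadjusted p under 0.05, and 0 by DESeq2 without the block), and 0.0424% of all genes did, all of them higher. At 1 h, 0 of the 40 had groups that did not overlap, against 8.24% of all genes, and 9 were higher and 4 lower in 3 of 3 replicates, against 43.3% of all genes in either direction. No gene of the 40 was lower at 1 h in the edgeR fit, where 2 were higher and 4 lower at an unadjusted p under 0.05, and DESeq2 with the block gave the same counts past the threshold, 1 higher and 0 lower. Itga4, which was lower at 1 h in 3 of 3 replicates, passed when genes with low counts were not filtered out, and otherwise had a log2 fold change of -0.22 (edgeR adjusted p = 0.247). Itga1, Itga8 and Itgav were also lower at 1 h in 3 of 3 replicates, with adjusted p of 0.140, 0.257 and 0.210 by edgeR. The median log2 fold change of the 40 genes at 1 h was 0.01, against 0.00066 over all genes.

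Most of the change fell between 1 h and 6 h. At 6 h against 1 h, 12 genes were higher and 9 lower (52.5% of the 40, against 35.6% of all genes tested), and 8 of the 40 had groups that did not overlap, against 22.2% of all genes. The median log2 fold change was 0.10 against -0.00093 over all genes, with an SD of 0.142 over the 3 replicate pairs. This median was -0.00396 without 1 h replicate 3 and 0.0125 with GC and length trends removed. In 3 of 3 replicates 12 were higher and 9 lower, against 57.7% of all genes with a single direction. Without the block 3 of the 21 passed, and 2.14% of all genes did (1.48% higher, 0.663% lower). This comparison and the one with 0 h share the 6 h libraries, so they are not independent. Lama5 (0.77), Agrn (0.52), Lamc1 (0.50), Itga6 (0.45), Dag1 (0.39) and Nid2 (0.36) had log2 fold changes close to those against 0 h. Itga1 was at 0.48 on the log2 scale. Itga2 was at 1.80, and at 1.07 without 1 h replicate 3 and 1.06 without 6 h replicate 3, with the call kept. Itga5 was at 0.17 (edgeR adjusted p = 0.0262, and 0.402 with GC and length trends removed and 0.0694 with only the 6 libraries compared), against 0.43 in the first hour. Among the genes that fell, Itga7 was at -0.94, Col18a1 at -0.61, Itga8 at -0.60 and Col6a1 at -0.59 on the log2 scale. Itga8 and Itga4 (-0.39) had smaller falls from 1 h than from 0 h.

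Hspg2 and Col11a1 passed at 6 h against 1 h and not against 0 h. Hspg2 was higher in 3 of 3 pairs (log2 fold change 0.31, standard error 0.10, edgeR adjusted p = 0.0309), and the call was lost without 1 h or 6 h replicate 3, the pair with the widest step, from 137 to 229.6 CPM, where the log2 fold change was 0.12 and 0.17. It was also lost in DESeq2 with the block (adjusted p = 0.141), with only the 6 libraries compared (edgeR adjusted p = 0.0549) and without the block (edgeR adjusted p = 0.334). Col11a1 (log2 fold change 0.16, standard error 0.05, edgeR adjusted p = 0.0324) passed in 4 of 9 leave-one-out fits and was lost without 0 h replicate 2, 1 h replicate 1 or 3, or 6 h replicate 1 or 3, and also with only the 6 libraries compared (edgeR adjusted p = 0.0952), with GC and length trends removed (0.0503) and without the block (0.906). Itgav, Itgb5 and Itgb8, which passed against 0 h, had log2 fold changes of -0.02, 0.11 and -0.15 against 1 h and did not pass. With GC and length trends removed Itga9 (-0.20, edgeR adjusted p = 0.0399), Itgb8 (-0.16, edgeR adjusted p = 0.00462) and Fn1 (-0.21, edgeR adjusted p = 0.0465) passed as lower than at 1 h. In 1 h replicate 3 several genes, such as Hspg2, Itgav, Agrn and Lama5, were below both 0 h and 6 h replicate 3, and without this library 14 genes in place of 9 were lower at 6 h than at 1 h.

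For most of these genes the replicates differed more than the time points. The ratio of the highest to the lowest replicate mean exceeded the ratio of the highest to the lowest time point mean in 29 of the 40 genes (72.5%), against 61.7% of all genes tested, with 0.01 CPM added to every value. The median ratio between replicates was 1.77 for the 40 genes and 1.30 for all genes, and between time points 1.23 and 1.21. Sparcl1 had the widest ratio between replicates, 55.0, and a ratio of 1.05 between time points. Col9a1 (16.5), Itga2 (6.63), Itga8 (4.29), Lama1 (3.99), Col6a1 (3.56) and Itga1 (3.05) followed in the ratio between replicates, and they were not high in the same replicate. Replicate 3 was highest for Itga1, Itga2 and Itga8, and replicate 2 for Lama1, Col6a1 and Sparcl1. Itga7, Lama5, Lamc1, Agrn, Dag1, Itga6 and Nid2 were among the 11 genes with a wider ratio between time points. The NSC marker Prom1 also differed by replicate, at 10.3, 11.95 and 2.98 CPM on average in replicates 1, 2 and 3, and whether the replicates differed in cell composition was not tested.

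**Figure D4:**
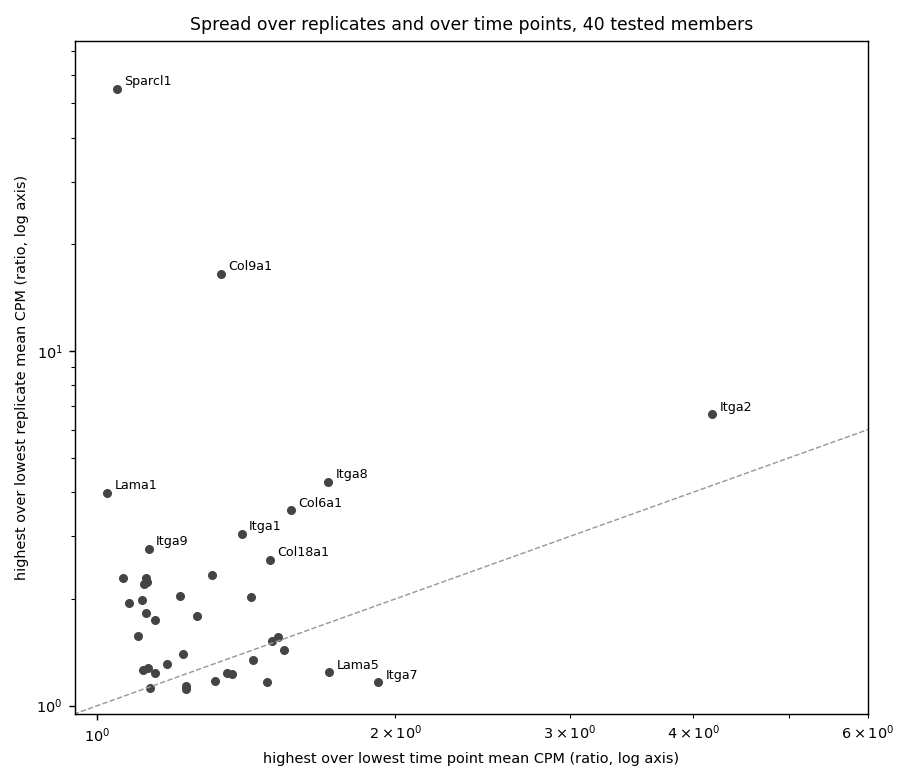
Ratio of the highest to the lowest mean CPM over the 3 time points (x axis) and over the 3 replicates (y axis) of the 40 tested genes, both on log scales, with a dashed line where the ratios are equal. 29 genes lie above the line, Sparcl1 highest at 55.0, and Itga7 and Lama5 lie farthest to the right among those below it.

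Other genes of the same families were tested in the same fit. Of 7 tested integrin subunits outside the list, 0 were higher and 1 lower at 6 h against 0 h, Itga2b (log2 fold change -0.60, edgeR adjusted p = 0.00585), and of 4 other laminin chains 0 were higher and 1 lower, Lama3 (-0.63, edgeR adjusted p = 0.0325). Of 29 other collagen chains 7 were higher and 5 lower. Those with the largest changes were Col13a1 (1.69), Col15a1 (-1.57) and Col28a1 (1.32 on the log2 scale), which were at 0.234, 0.135 and 1.31 CPM at 6 h. None of these genes passed without the block.

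The proteins that carry integrin signals inside the cell also split. Of 26 tested integrin adaptors and focal adhesion genes 8 were higher and 10 lower at 6 h against 0 h. Zyx, a focal adhesion protein that responds to tension, averaged 81.9 CPM before induction and 48.9 CPM 6 h later (log2 fold change -0.73, edgeR adjusted p = 1.8e-05, and 0.0916 without the block), and Vcl, which encodes vinculin, averaged 86.6 and 57.5 CPM (-0.59, edgeR adjusted p = 6.5e-05, and 0.135 without the block). The third, Ilk, fell by 1.23 on the log2 scale from 0.300 CPM, but 76.75% of its exon bases lie over Taf10 on the opposite strand, so its count is uncertain. At 1 h Nedd9, a docking protein of the focal adhesion kinase, was higher (0.66, edgeR adjusted p = 7.1e-05, and 1.00 without the block).

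Of 27 tested genes for the modification and crosslinking of collagen, 7 were higher and 3 lower at 6 h. P3h2, a prolyl hydroxylase of basement membrane collagen, rose from a mean of 8.42 to 16.6 CPM (log2 fold change 1.01, edgeR adjusted p = 1.0e-05, and 0.0615 without the block). Loxl1, at 0.239 CPM at 0 h and 0.0996 CPM at 6 h, fell (log2 fold change -1.35, edgeR adjusted p = 0.0250, and 0.599 without the block), and so did Adamts3 (-0.68, edgeR adjusted p = 0.00786, and 0.340 without the block). Of 24 matrix proteases and inhibitors 8 were higher and 6 lower, among them Mmp24 (0.75) and Mmp11 (0.67 on the log2 scale), with means of 0.931 and 1.15 CPM at 6 h and adjusted p of 0.0213 and 0.0115 by edgeR (0.651 and 0.180 without the block). Adamts1, a protease that cleaves proteoglycans, averaged 52.5 CPM before induction, 172 CPM after 1 h and 66.95 CPM after 6 h (log2 fold change 1.74 at 1 h, edgeR adjusted p = 1.5e-06, and 0.0412 without the block). At 1 h Plod2, a lysyl hydroxylase of collagen, was also higher (0.21, edgeR adjusted p = 0.0417, and 1.00 without the block).

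Of 22 dystroglycan partners and glycosylation genes 5 were higher and 6 lower at 6 h against 0 h, beside the rise of Dag1 itself. Sntb1, a syntrophin that binds the dystrophin complex, rose from a mean of 3.34 to 9.33 CPM (log2 fold change 1.49, edgeR adjusted p = 1.1e-05, and 0.0213 without the block). Sspn, the sarcospan of the same complex, also rose (0.44 on the log2 scale, edgeR adjusted p = 6.1e-05, and 0.0796 without the block). The counts of these lists stand beside the 34.9% of all genes tested that passed at 6 h and the 3.51% at 1 h.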

How the data were processed

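RNA-seq counts were analysed for 9 libraries of NSC cultures, 3 at each of 0 h, 1 h and 6 h. Raw counts of reads per Ensembl gene were deposited by the authors without normalisation, after alignment to mm10 (GRCm38) with STAR 2.5.3a. The submitters' processing notes also name FastQC and DESeq2 1.22.1. The strand setting of the counting is not given in the sources used here. Low counts carry the larger relative counting error.

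Symbols, coordinates and exon lengths were taken from GENCODE M21 (GRCm38) and promoter windows from RefSeq. In R 4.3.3 with edgeR 4.0.16 and limma 3.58.1, genes were kept with filterByExpr (minimum count 10, minimum total count 15), scaled with TMM and fitted with glmQLFit and glmQLFTest over all 9 libraries, with time point and the replicate number as factors. P-values were adjusted over 18858 genes (Benjamini-Hochberg) and called under 0.05, and each standard error is the log2 fold change divided by the root of its F value. Python 3.11.15 (pandas 2.3.3, numpy 2.4.6, matplotlib 3.10.9) was used for summaries and plots.

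The replicate numbers come from the labels. They follow the letter in the library titles, by which the libraries were paired. After the mean of each time point was subtracted, libraries with the same number correlated at 0.733 to 0.800 (9 pairs) and the others at -0.462 to -0.314 (18 pairs). Because the deviations of a gene cancel within a time point, a positive first range makes the second negative. The second range is therefore not separate evidence for the pairing. The smallest chi-square per degree of freedom between any 2 libraries was 13.4, so no library was present more than once. Alternatives were fits without the block, DESeq2 1.42.0 with and without it, RLE scaling, library totals, other filters on low counts, only the 6 libraries compared, stricter thresholds, removal of each library's GC and length trends by splines (4 degrees of freedom, for 99.6% of tested genes), and leaving out each library. The fits were also run on counts simulated with the replicate differences built in, so that run cannot show whether the block was right.

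The 41 genes and the lists of other genes were chosen with earlier results of these data known. Values in every library are given for genes past the threshold in any comparison or averaging 100 CPM or more, and from the other lists up to 3 genes per list and comparison with the largest changes are named. Splicing was not analysed here, and some genes that this rule selects are not reported here.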

Additional observations from a re-analysis of the deposited data

How the results depend on the processing

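No alternative reversed the direction of any of the 44 calls of these genes over the 3 comparisons. The replicate block decided most calls. With no replicate block, edgeR called 0 genes higher at 1 h against 0 h, 2 higher and 1 lower at 6 h against 0 h, and 2 higher and 1 lower at 6 h against 1 h, and DESeq2 with no replicate block called 0, then 3 and 1, then 4 and 1. These paired and unpaired fits share 6 of the 44 calls in edgeR and 9 in DESeq2, and with the block DESeq2 kept 42. RLE scaling kept 44 calls, library totals 41, testing genes of any count 43, testing those averaging 1 CPM or more 39 of the 42 it could test, only the 6 libraries compared 41, and the removal of GC and length trends 41, adding 1 call higher at 6 h against 0 h (Col11a1) and 3 lower at 6 h against 1 h (Itga9, Itgb8 and Fn1). Without the filter 1 gene, Itga4, was lower at 1 h in place of 0, for a reason that was not tested. At 6 h against 0 h, 15 genes were higher in place of 11 without the filter. With only the 6 libraries compared the number was also 15, and with library totals it was 12. The genes added in these 3 fits are not named here. At an adjusted p under 0.01, 5 genes were lower at 6 h against 0 h in place of 11. With a further limit of 1 on the absolute log2 fold change, 0 genes remained at 1 h, 1 higher and 0 lower at 6 h against 0 h, and 1 higher and 0 lower at 6 h against 1 h. The median log2 fold change at 6 h against 0 h was 0.0254 with GC and length trends removed, in place of 0.07.

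Leaving out a library kept 331 of 396 calls. The number lower at 6 h against 0 h ranged from 4 to 12, with 4 without replicate 2 of 0 h or of 6 h, 5 without 6 h replicate 1, and 6 without 0 h replicate 1 or 3. The number higher ranged from 8 to 16. At 6 h against 1 h, 6 to 14 were lower, 14 without 1 h replicate 3 and 6 without 1 h replicate 1, and 10 to 12 higher.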

Other observations

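Itgb2, the beta chain of leukocyte integrins, was at means of 0.254, 0.324 and 0.154 CPM at the 3 time points. It was lower at 6 h than at 1 h with the replicate block (log2 fold change -1.10, edgeR adjusted p = 0.0136, and 0.202 without it). Of the 7 microglial markers only Itgam, a leukocyte chain, was at 0 in 9 of 9 libraries. From 1 h to 6 h the means of Csf1r (0.186 to 0.0579 CPM), P2ry12, Ptprc and Cx3cr1 fell, and those of Aif1 and Tmem119 rose. Whether the Itgb2 RNA came from such cells was not tested. Col19a1 was at 4.48, 3.41 and 1.65 CPM (-1.06 at 6 h against 1 h, edgeR adjusted p = 0.00119, and 0.641 without the block). Colgalt2, which adds galactose to collagen, was at 18.6, 18.7 and 28.6 CPM (0.65 at 6 h against 1 h, edgeR adjusted p = 3.0e-05, and 0.513 without the block).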
